A study of Homo sapiens with 3 samples.

Results

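The genes of glycolysis and of the pentose phosphate pathway were examined in HepG2, an established cell line from a human liver cancer. The 34 members were taken from a list of enzymes and glucose carriers and were matched by gene symbol to the rows on the main chromosomes, which found all 34 among 43389 gene rows. The rule uses no measured value, although the list was drawn up with earlier results of these data known. The series consists of 3 RNA-seq libraries from polyA RNA of HepG2 cells with the genotype WT, numbered as replicates 1 to 3. It has 1 condition, with no treated, mutant or control group. No label says that the replicates came from separate cultures. Every SD therefore measures only the spread between these libraries, which may be technical. Every p-value reflects only whether the direction of a difference agrees between these libraries. Levels are given in TPM, a unit that corrects for gene length and has a fixed total per library, which allows genes to be compared with each other.

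In glycolysis, glucose enters the cell through a carrier, is phosphorylated by a hexokinase and is split into triose phosphates in a preparatory phase that consumes ATP. In the payoff phase, the triose phosphates are converted to pyruvate and ATP is gained. Lactate dehydrogenase interconverts pyruvate and lactate and thereby recycles NADH. The pentose phosphate pathway branches from glucose 6-phosphate, supplies NADPH and ribose 5-phosphate, and returns sugar phosphates to glycolysis through transketolase and transaldolase. Several steps have isoenzymes encoded by separate genes, and hepatocytes, muscle, brain, testis and proliferating cells are known to use different ones.

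The label was checked against 8 secreted hepatocyte products, and all 8 were below 1 TPM in every library. ALB, APOA1, APOB, SERPINA1 and FGB were listed at 0 in all 3 libraries, and the 8 genes together summed to between 0.0571 and 0.244 TPM. The secreted products that define the labelled cell type were thus absent or nearly absent, and the name HepG2 is used below as the label gives it. The tables hold no read counts, and the depth of the libraries is unknown. As a relative measure of depth, coverage per FPKM reached at most 13.3, 12.8 and 11.5 in replicates 1, 2 and 3. In RNA from a whole culture, fewer cells that use a gene and less RNA of it per cell cannot be told apart.

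Most members were expressed, and the payoff enzymes GAPDH and ENO1 were the most abundant. At least 1 TPM was reached in every library by 28 of 34 members (82.4%), compared with 59.5% of the 18743 protein-coding rows. At least 10 TPM was reached by 24 members (70.6%), compared with 40.4% of the protein-coding rows. The median level was 100 TPM over the members and 4.99 TPM over the protein-coding rows. GAPDH, ENO1, LDHA, LDHB, TPI1 and PKM exceeded 1000 TPM in every library, and 17 members exceeded 100 TPM. PFKFB4, GAPDHS, PGAM2 and ENO2 lay between 1 and 10 TPM. HK3, PFKFB1, PKLR, LDHC, SLC2A2 and SLC2A3 were below 1 TPM in all libraries. These 6 belong to steps at which another member was expressed, so no step of the list was without an expressed gene.

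**Figure D1:**
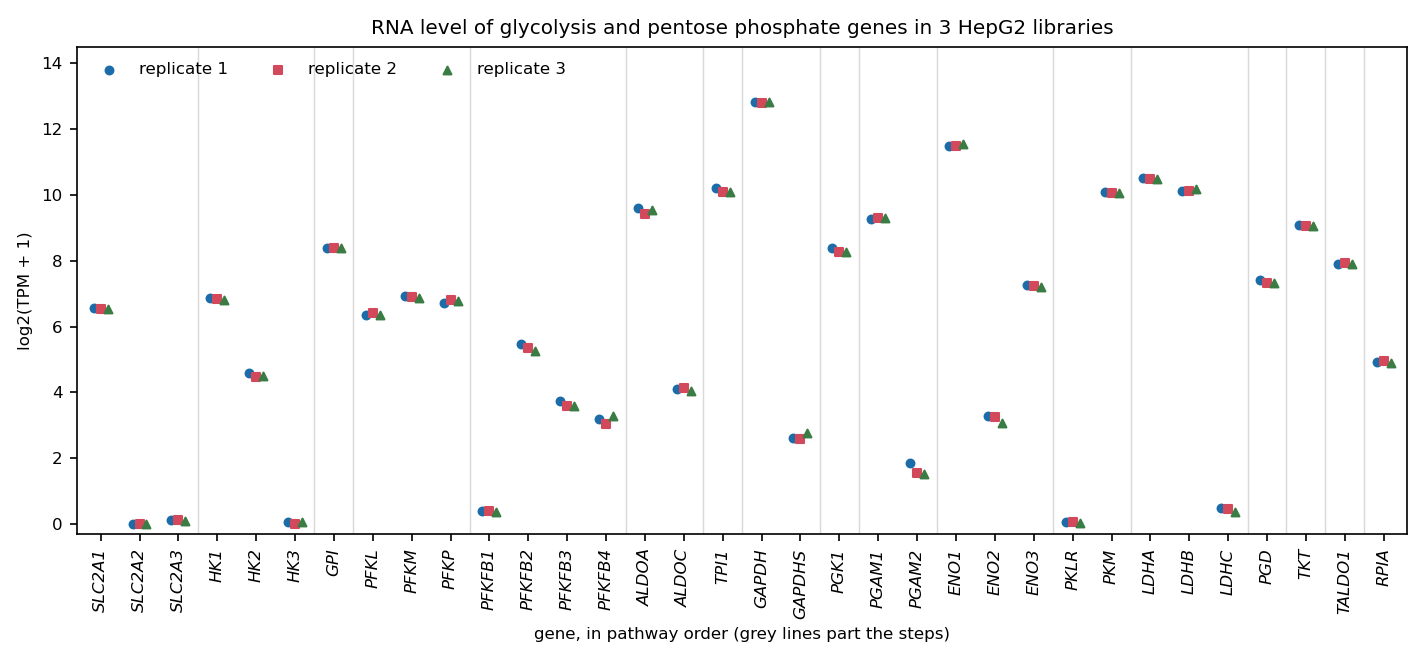
The RNA level of each member is plotted as log2(TPM + 1) on the vertical axis, with the genes in pathway order on the horizontal axis and 1 point per library. GAPDH stands highest and 6 members sit near 0, and at each step with isoenzymes the points of the 3 libraries lie close to each other.

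Together, the members summed to 18680 ± 243 TPM (SD, n = 3), which was 1.89%, 1.84% and 1.87% of all TPM in replicates 1, 2 and 3. GAPDH alone gave 38.9 ± 0.0777% of that sum. In the order of mean TPM, 14 members were among the top 1000 of all rows and 3 were among the top 100, namely GAPDH at rank 3, ENO1 at rank 17 and LDHA at rank 76. Of the 33 pairs of neighbors in the order of the members, 26 had ranges over the 3 libraries that did not overlap and 7 had ranges that did. The overlapping neighbors were LDHB with TPI1, TPI1 with PKM, GPI with PGK1, ENO2 with PFKFB4, LDHC with PFKFB1, PKLR with HK3, and HK3 with SLC2A2.

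The payoff phase had a far higher summed level than the preparatory phase. The 10 preparatory members summed to 2762, 2562 and 2610 TPM in replicates 1, 2 and 3, and the 10 payoff members to 12409, 12201 and 12416 TPM. The payoff sum was 4.67 ± 0.154 times the preparatory sum (SD, n = 3). Most of it came from GAPDH and enolase. Within the preparatory phase, the hexokinase step had the lowest sum, at 136 ± 2.86 TPM, followed by phosphofructokinase at 309 ± 4.91 and glucose phosphate isomerase at 334 ± 0.815 TPM. Aldolase and triose phosphate isomerase were higher, at 748 ± 48.7 and 1118 ± 62.8 TPM. Hexokinase and phosphofructokinase are the regulated steps of this phase, and by TPM the summed RNA of their members was lower than that of any other step of it in all 3 libraries. By coverage, phosphofructokinase was above glucose phosphate isomerase in replicate 2, at 774 against 767. The hexokinase sum leaves out HKDC1.

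**Figure D2:**
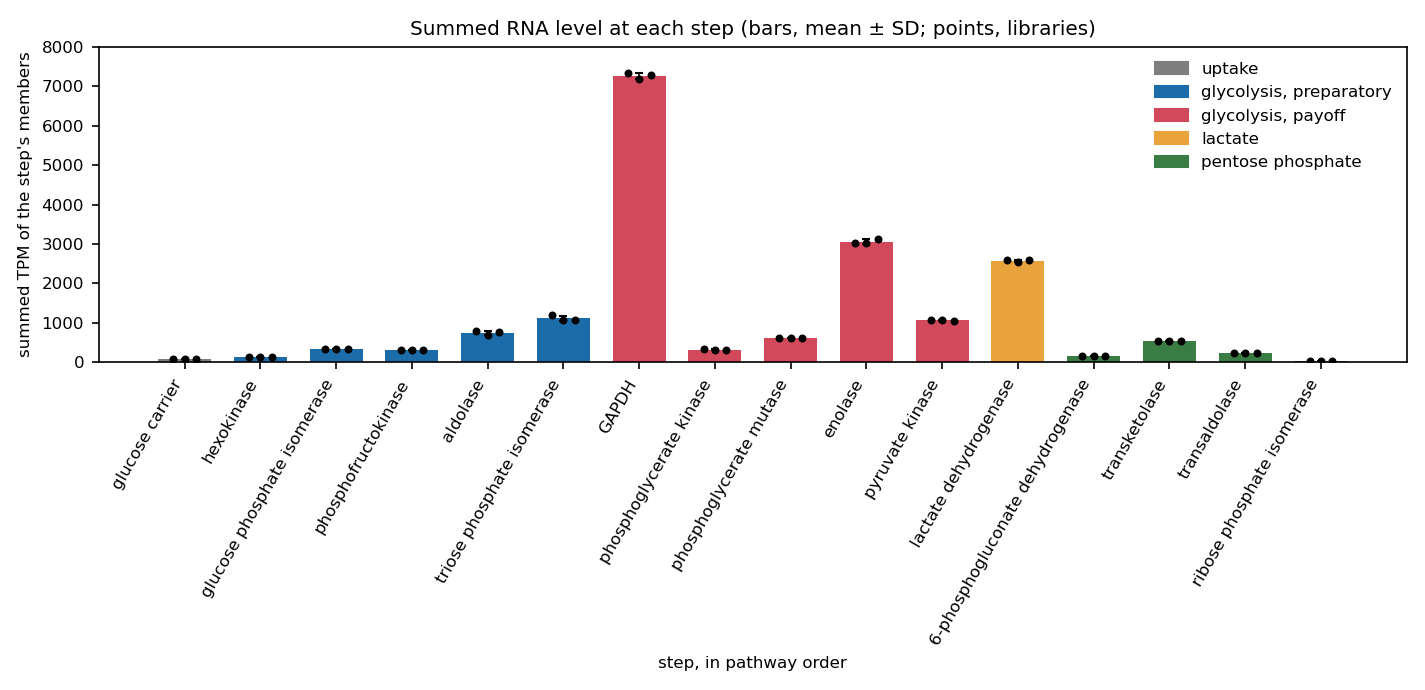
The bars give the mean summed TPM of the members at each step, in pathway order, with the SD over 3 libraries as error bars and the libraries as points, and colors mark the phases. GAPDH reaches 7270 TPM and enolase 3062 TPM, whereas hexokinase and phosphofructokinase stay at 136 and 309 TPM.

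Glucose uptake was represented by SLC2A1 (GLUT1), the carrier found in most tissues. SLC2A1 was at 93.3, 92.2 and 92.1 TPM in replicates 1, 2 and 3. SLC2A3 (GLUT3), the carrier best known from neurons, was at 0.0815, 0.0956 and 0.0727 TPM. SLC2A2 (GLUT2), the low-affinity carrier of hepatocytes and pancreatic beta cells, was listed at 0 in all 3 libraries. SLC2A1 therefore took 99.9 ± 0.0126% of the summed level of these carriers. SLC2A14, a close copy of SLC2A3, was at 0, 0.0254 and 0 TPM, and reads from either gene could have been split between the 2 rows. Of 10 other hexose carriers, 5 reached 1 TPM and 2 reached 10 TPM in every library. The highest of them were SLC2A8 at 22.2 ± 2.15 TPM and SLC2A6 at 22.1 ± 1.56 TPM, both below SLC2A1 in each library.

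At the hexokinase step, the leading gene depended on the measure. HK1 (chromosome 10, 69269991 to 69401882), the hexokinase of most tissues, was at 116, 113 and 112 TPM. HK2 (chromosome 2, 74832655 to 74893354), which is abundant in muscle and in many tumors, was at 23.2, 21.3 and 21.4 TPM. HK1 was thus 5.18 ± 0.178 times HK2 by TPM, and the groups of values did not overlap. By coverage, the deposited mean read depth over a gene, the order was the opposite. HK1 had a coverage of 71.9, 69.0 and 61.1 in replicates 1, 2 and 3. HK2 had a coverage of 135, 123 and 111, which was 1.82 ± 0.0492 times that of HK1. The share of HK1 among HK1, HK2 and HK3 was 83.8 ± 0.482% by TPM and 35.5 ± 0.629% by coverage. HK3, which is known from blood cells, was at 0.0429, 0 and 0.0375 TPM.

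HKDC1, a hexokinase gene that lies outside the list of members, was at 95.4, 88.4 and 88.9 TPM. Its coverage was 497, 451 and 407, above the coverage of HK1 and of HK2 in every library. Among HK1, HK2 and HKDC1, HKDC1 gave 40.1 ± 0.557% of the summed TPM and 70.4 ± 0.242% of the summed coverage. ADPGK, which phosphorylates glucose with ADP, was at 52.8 ± 2.71 TPM. With HKDC1 and ADPGK included, the share of HK1 by TPM was 40.7 ± 0.772%.

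GPI, glucose phosphate isomerase, was at 333.6, 334.6 and 332.9 TPM. Its coefficient of variation of 0.244% was the lowest of the 24 members that averaged 10 TPM or more. The row of KIAA0355, at 4.64 ± 0.0452 TPM, shares 2237 bp with it on the same strand. Phosphofructokinase commits fructose 6-phosphate to glycolysis, and all 3 of its genes, named for liver, muscle and platelets, were expressed. PFKM was at 120, 119 and 116 TPM, PFKP at 104, 111 and 109 TPM, and PFKL, the liver form, at 80.9, 84.7 and 81.4 TPM. PFKM was 1.10 ± 0.0509 times PFKP, the smallest ratio of any pair with both genes expressed, and was above it in all 3 libraries. By coverage, however, PFKM was the lowest of the 3, with 117, 112 and 99.5 in replicates 1, 2 and 3. PFKP had a coverage of 354, 368 and 324 and PFKL of 287, 294 and 252. By coverage, PFKP was 3.19 ± 0.145 times PFKM and PFKL was 2.54 ± 0.0859 times PFKM. PFKP stood above PFKL by both measures. PFKM shares 1056 bp with SENP1 on the opposite strand, which was at 17.9 ± 0.975 TPM.

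The PFKFB genes encode enzymes that make and break down fructose 2,6-bisphosphate, the activator of phosphofructokinase. PFKFB2, the form known from heart, was at 43.7, 39.6 and 37.6 TPM and gave 67.1 ± 1.70% of the sum. PFKFB3, the form with the highest kinase activity relative to phosphatase activity, was at 12.3, 10.9 and 11.1 TPM. PFKFB4, a form known from testis and from hypoxic tumor cells, was at 8.03, 7.26 and 8.76 TPM. PFKFB1, the form known from liver and muscle, was at 0.316, 0.326 and 0.280 TPM. PFKFB2 led in every library by TPM and by coverage, with 77.3 ± 2.16% of the summed coverage. PFKFB3 was 1.43 ± 0.145 times PFKFB4 by TPM. By coverage, PFKFB4 was 7.67 ± 0.865 times PFKFB3, which had only 4.13, 3.92 and 3.37. PFKFB4 shares 666 bp with the row of UCN2 on the same strand, which was at 4.97 ± 0.408 TPM, and reads in the shared part cannot be assigned by position.

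The ubiquitous aldolase ALDOA (chromosome 16, 30053160 to 30072216) was at 776, 679 and 740 TPM. ALDOC, the aldolase known from brain, was at 16.3, 16.7 and 15.4 TPM, so that ALDOA was 45.4 ± 4.04 times ALDOC. ALDOA shares 17261 bp with a row on the same strand, LOC112694756, whose RefSeq synonyms include ALDOA. That row was at 166, 232 and 188 TPM. It was highest in replicate 2, where ALDOA was lowest, and lowest in replicate 1, where ALDOA was highest. ALDOA plus this row summed to 942, 911 and 928 TPM. The coefficient of variation was 1.68% for the sum and 6.68% for ALDOA alone. The pair of rows was singled out after its values were seen. TPI1, triose phosphate isomerase, was at 1191, 1082 and 1082 TPM. Its pseudogene rows took little of this level, with TPI1P2 at 1.28, 1.46 and 1.14 TPM or 0.116 ± 0.0162% of the sum with TPI1.

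GAPDH (chromosome 12, 6534517 to 6538375), which couples the oxidation of glyceraldehyde 3-phosphate to the reduction of NAD, was at 7332, 7172 and 7289 TPM. It was 2.50 ± 0.0540 times ENO1, the next member in order. The spermatogenic form GAPDHS was at 5.13, 4.96 and 5.75 TPM. GAPDH was 1381 ± 98.8 times GAPDHS. GAPDHS shares 4582 bp with the antisense row TMEM147-AS1, which was at 8.25 ± 0.346 TPM, and without strand the reads of both cannot be told apart. No GAPDH pseudogene had a row in the tables. The GAPDH primer pair that the study lists for quantitative PCR was searched in 252835 annotated transcripts without mismatches. Both primer sites were found in 10 transcripts, all of GAPDH, and 9 of them gave a product of 135 bp. The reverse site alone was also found in 9 GAPDH pseudogenes, and the forward site alone in 1. The reverse site alone was also found in 1 gene that is neither GAPDH nor a GAPDH pseudogene.

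PGK1, the phosphoglycerate kinase of somatic cells, was at 336, 305 and 306 TPM. PGK2, the testis form outside the list, was listed at 0 in all libraries. PGAM1, the phosphoglycerate mutase of most tissues, was at 619, 624 and 625 TPM. PGAM2, the muscle form, was at 2.63, 1.91 and 1.86 TPM, and PGAM1 was 299 ± 55.5 times as high. PGAM4, a near copy of PGAM1, was at 0.459 ± 0.0471 TPM, and PGAM1P5 took 0.0372 ± 0.00328% of its sum with PGAM1. Reads of PGAM1 could have been split with these copies, whose levels were small beside it.

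All 3 enolase genes were expressed. ENO1, the ubiquitous form, was at 2868, 2864 and 2977 TPM. ENO3, the muscle form, was at 153, 150 and 148 TPM, and ENO2, the neuronal form, at 8.66, 8.60 and 7.42 TPM. ENO1 was 19.3 ± 0.757 times ENO3 and gave 94.8 ± 0.206% of the step. ENO3 stood above ENO2 in every library by TPM and by coverage. The row of MIR6728 lies within that of ENO1 on the same strand, and it was listed at 0.268, 0.745 and 18.9 TPM. It was highest in replicate 3, in which ENO1 was also highest, and reads on this stretch of 89 bp cannot be assigned by position.

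Pyruvate kinase, which makes pyruvate and ATP, was represented almost entirely by a single isoenzyme. PKM (chromosome 15, 72199029 to 72231624), the muscle, brain and proliferating cell form, was at 1084, 1071 and 1056 TPM. PKLR (chromosome 1, 155289293 to 155301438), the liver and red cell form, was at 0.0398, 0.0419 and 0.0173 TPM. PKM was higher by 10.02 ± 0.0103 on the log2(TPM + 1) scale, which understates the difference because PKLR lies below the pseudocount of 1. PKLR shares 556 bp with HCN3 on the opposite strand, which was at 2.96 ± 0.157 TPM. Over all steps, 12 members shared positions with 16 other rows, of which 8 averaged at least 1 TPM. The tables give 1 value per gene, and the M1 and M2 splice forms of PKM were not analysed here.

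At the lactate dehydrogenase step, both the A and the B subunit were highly expressed, and A led. LDHA (chromosome 11, 18394389 to 18408425), the subunit abundant in skeletal muscle and in many tumors, was at 1472, 1419 and 1432 TPM. LDHB (chromosome 12, 21635342 to 21657971), the subunit abundant in heart, was at 1119, 1120 and 1164 TPM. LDHA was 1.27 ± 0.0424 times LDHB and the values did not overlap. LDHA also led by coverage, where the ratio was 1.35 ± 0.0435. LDHC, the testis subunit, was at 0.390, 0.365 and 0.276 TPM. LDHC lies on the same strand as LDHA and begins 3872 bp beyond its end. These neighboring genes of the same step stood 10.07 ± 0.0577 apart on the log2(TPM + 1) scale. That value understates the difference because LDHC lies below the pseudocount of 1.

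The promoters of the LDHA and LDHC neighbors and of PKM and PKLR are shown because these pairs had the same step and very different RNA levels. Each is the 300 bases from RefSeq (GRCh38.p14) that span 250 bases before to 50 after a gene's start, 5′ to 3′ on the gene's strand, taken from the start nearest to the deposited row. Capitals mark every match of ACGTG or of its reverse complement CACGT, and matches that overlap were joined into a single run. ACGTG is a form of the core letters known to be bound by hypoxia-inducible factors, and other forms were not searched. The coordinates are chr11:18394313-18394612 on the plus strand for LDHA, chr11:18412068-18412367 on the plus strand for LDHC, chr15:72231141-72231440 on the minus strand for PKM and chr1:155301389-155301688 on the minus strand for PKLR.
LDHA: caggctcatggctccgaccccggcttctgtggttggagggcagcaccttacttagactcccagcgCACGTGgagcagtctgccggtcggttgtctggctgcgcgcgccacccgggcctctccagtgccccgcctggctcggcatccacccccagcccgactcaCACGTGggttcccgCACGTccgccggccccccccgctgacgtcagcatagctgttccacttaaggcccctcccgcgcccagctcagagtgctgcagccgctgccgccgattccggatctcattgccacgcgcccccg
LDHC: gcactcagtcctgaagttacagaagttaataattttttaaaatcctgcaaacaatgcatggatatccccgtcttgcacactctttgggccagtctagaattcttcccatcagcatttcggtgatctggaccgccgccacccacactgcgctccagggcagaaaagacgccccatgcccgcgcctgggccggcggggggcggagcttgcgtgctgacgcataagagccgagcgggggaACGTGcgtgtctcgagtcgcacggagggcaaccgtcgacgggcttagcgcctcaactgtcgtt
PKM: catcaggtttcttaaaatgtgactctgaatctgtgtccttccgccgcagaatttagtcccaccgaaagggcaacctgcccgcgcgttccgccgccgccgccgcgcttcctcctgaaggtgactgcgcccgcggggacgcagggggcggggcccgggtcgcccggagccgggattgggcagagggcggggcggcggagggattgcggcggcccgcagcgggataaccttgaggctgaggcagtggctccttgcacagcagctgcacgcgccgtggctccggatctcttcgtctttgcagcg
PKLR: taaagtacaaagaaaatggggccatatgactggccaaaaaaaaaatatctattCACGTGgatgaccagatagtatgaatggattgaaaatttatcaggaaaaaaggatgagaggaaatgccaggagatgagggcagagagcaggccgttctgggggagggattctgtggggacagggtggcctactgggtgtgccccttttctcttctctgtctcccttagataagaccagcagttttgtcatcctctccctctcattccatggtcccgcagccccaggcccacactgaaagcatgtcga
The LDHA promoter held 3 runs of the motif and the LDHC and PKLR promoters 1 each, whereas these letters did not occur in the PKM window. In these windows, the highly expressed LDHA and PKM thus differed in whether ACGTG occurred on either strand. The PKLR window held these letters although the level of PKLR was near 0. The start used lay 434 bp from the start of the row for PKM, 174 bp for LDHA, 20 bp for LDHC and 0 bp for PKLR. The PKM window therefore lay inside its row and did not cover the start of the row. Of the 2 LDHA windows, 1 held the motif. CpG dinucleotides numbered 29 in LDHA, 25 in LDHC, 34 in PKM and 4 in PKLR.

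Promoters were found for 32 of 34 members, with PFKFB2 and SLC2A3 unmatched. Over all 56 windows of these members, 19 (33.9%) held ACGTG on either strand, compared with 21.4% of all 35116 windows of the same length. In the single window nearest to the row, 12 of the 32 (37.5%) held it. The motif itself contains a CpG, and the part of CpG content in this difference was not tested. Of the members with a mean of at least 10 TPM, 9 of 23 held it, and of those below 1 TPM, 2 of 5 did. PGK1 held 3 runs, as LDHA did, and HK2 and ALDOC held 2 each. A match is a description of letters and no evidence of binding. The median number of CpG in the window was 30 for the 23 members with a mean of at least 10 TPM, 21.5 for the 4 members between 1 and 10 TPM and 4 for the 5 members below 1 TPM, compared with 14 over all windows. LDHC, with 25, stood above the other members below 1 TPM, and HK1, with 1, below all other members. The start of the window used lay 9 bp from the start of the row for HK1, 11662 bp for GPI and 11119 bp for ALDOA, and the start used in these cells was not measured.

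All 4 members of the pentose phosphate pathway were expressed, and TKT and TALDO1 led. TKT, transketolase, was at 541, 533 and 527 TPM. TALDO1, transaldolase, was at 240, 241 and 236 TPM. PGD, the dehydrogenase that yields NADPH and ribulose 5-phosphate, was at 169, 160 and 159 TPM. RPIA, which forms ribose 5-phosphate, was at 29.1, 29.7 and 28.6 TPM and was the lowest of the 4 in each library. TKT was 2.23 ± 0.0225 times TALDO1 and 3.28 ± 0.0633 times PGD. The 4 genes together summed to 965 ± 13.4 TPM, less than the 2576 ± 31.3 TPM of the lactate dehydrogenase genes. Outside the list, PGLS, the lactonase of the oxidative branch, was at 77.2 ± 3.60 TPM and RPE, the epimerase, at 28.6 ± 1.92 TPM. The transketolase-like genes were near or at 0, with TKTL1 at 0.0129 ± 0.0224 TPM and TKTL2 listed at 0.

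Each of the 25 pairs of members at the same step was compared within the libraries by the log2 ratio of TPM + 1. In all 25 pairs the same gene was higher in all 3 libraries, and the ranges of TPM did not overlap. Such separation was common among the members, as 26 of the 33 pairs of neighbors in their order also had ranges that did not overlap. Its share over all pairs of genes was not computed, so the count says little about isoenzyme choice. In an exact permutation test that flips the signs of the 3 libraries (two-sided), every pair had p = 0.25 and an adjusted p of 0.25 (Benjamini-Hochberg over 25 pairs). This is the smallest p that the design allows, so no pair could pass a threshold. Both genes reached 1 TPM in every library in 14 of the 25 pairs at the same step. By coverage, 21 pairs kept their direction and 4 were reversed, namely HK1 with HK2, PFKL with PFKM, PFKM with PFKP, and PFKFB3 with PFKFB4.

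**Figure D3:**
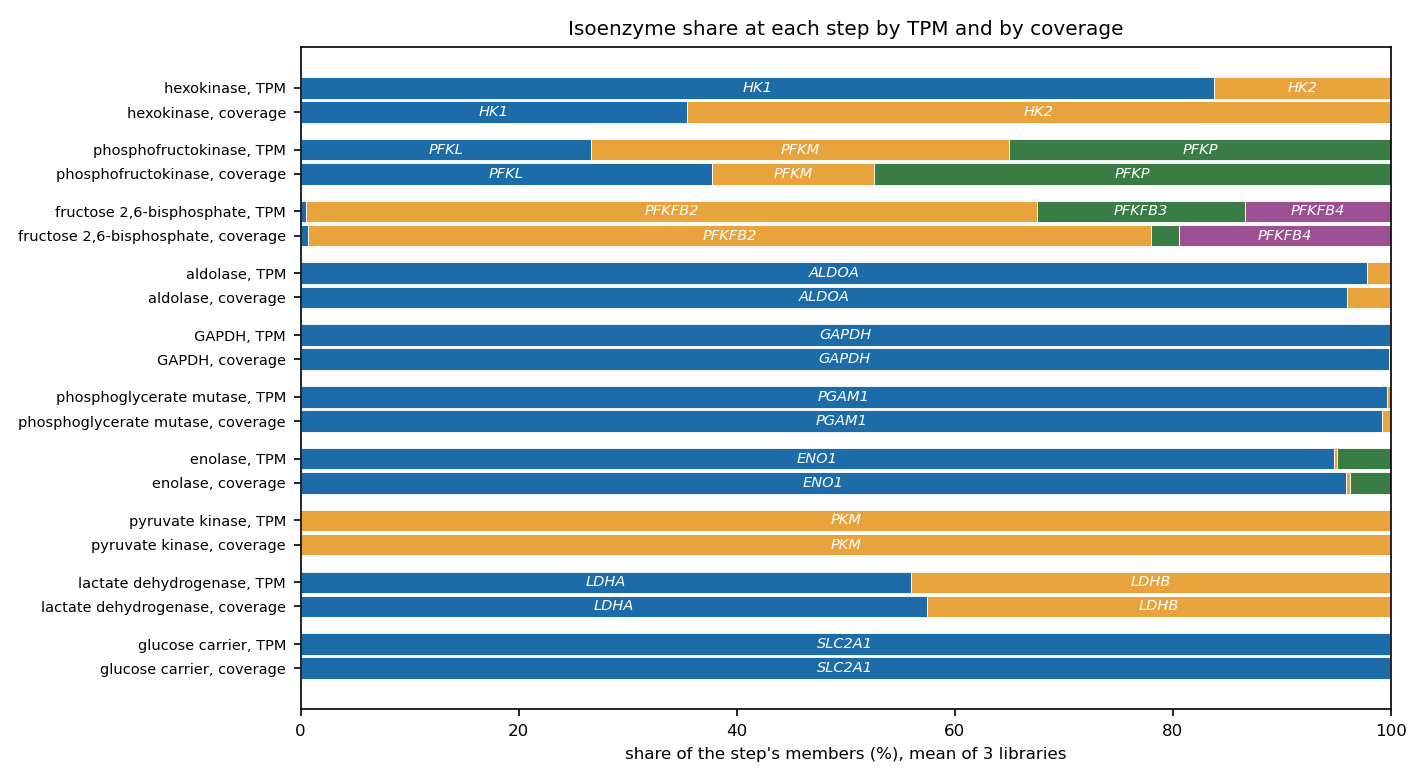
Stacked bars give each member's share of the summed level at its step in percent, as the mean of 3 libraries, with 1 bar by TPM and 1 by coverage for every step with isoenzymes. The bars of each pair look alike from aldolase to the glucose carriers, whereas HK1 shrinks from 83.8% to 35.5% and PFKM from 38.3% to 14.9%.

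In each reversed pair, 1 gene (HK1, PFKM or PFKFB3) had a low coverage for its FPKM. Coverage was divided by FPKM and scaled to the highest such ratio of the library. This relative ratio was 0.0558 for PFKFB3, 0.0991 for HK1, 0.155 for PFKM and 0.312 for PKM, the lowest 4 of the 33 members with a value. It was below 0.5 in 11 members and at least 0.9 in 12. The 7 members with a single RefSeq transcript, GAPDHS, PGK1, PGAM2, ENO2, SLC2A1, SLC2A3 and TALDO1, all had a ratio of 1.00. The median was 0.681 for the 16 members with 2 to 9 transcripts and 0.508 for the 10 members with 10 or more. HK1 has 30 RefSeq transcripts, PFKM 38 and PFKFB3 19, whereas HK2 has 7 and a ratio of 0.934. The ratio was 0.608 for PFKFB4, 0.565 for PFKL and 0.541 for PFKP. PKLR, with 10 transcripts and a ratio of 0.954, did not follow this order. For genes averaging 10 TPM or more, the median ratio was 0.553 for the members and 0.792 for all rows. The part of transcript number in the reversed orders was not tested. The levels of members with a low ratio, above all HK1, PFKM and PFKFB3, are uncertain relative to other genes. Orders across steps could also depend on the measure. PGAM1 was above PGK1 by mean TPM, at 623 against 316, and below it by mean coverage, at 1487 against 1886. PKM was above TKT by mean TPM, at 1070 against 534, and below it by mean coverage, at 1995 against 2339. Reversals across steps were not counted.

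**Figure D4:**
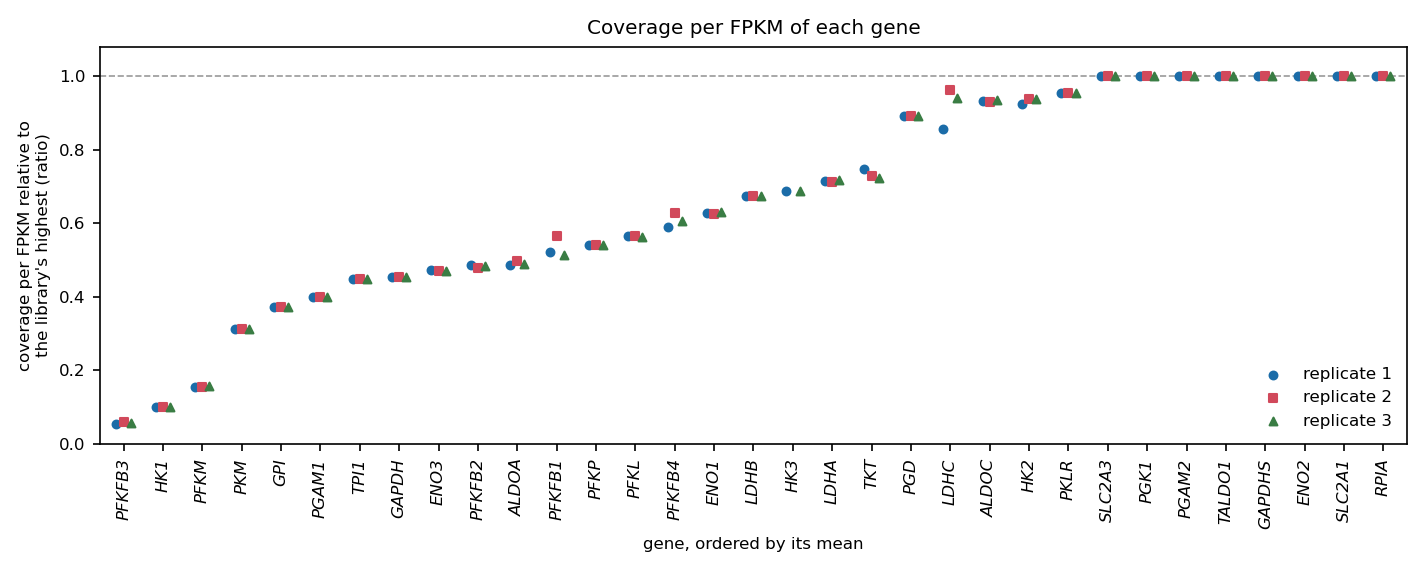
The coverage per FPKM of each member, relative to the highest ratio in the same library, is plotted on the vertical axis with 1 point per library, and the members are ordered by their mean. The points run from 0.0558 for PFKFB3 to 1.00 at the right, and the libraries nearly coincide for most genes.

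Variation between the replicates was small. The range of log2(TPM + 1) over the libraries was above 1 in 0 of the 24 members that averaged 10 TPM or more, and in 0.356% of all 8435 rows at that level. The largest range was 0.21, in PFKFB2. The median coefficient of variation was 2.08% over the 24 members and 4.88% over the 8435 rows. Among rows with a mean of at least 100 TPM, it was 1.94% for 17 members and 3.52% for all 1498 rows. The most variable of the 24 were PFKFB2 at 7.74%, ALDOA at 6.68% and PFKFB3 at 6.61%. Replicate 1 held the highest value for 15 of 24 members (62.5%), and it did so for 62.5% of all rows at that level. Replicate 3 held the lowest value for 13 members (54.2%), compared with 49.2% of all rows. The order of the libraries within the members was thus close to that of all rows.

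The wider lists differed in how many of their genes were expressed. Of 17 wider enzymes, 9 (52.9%) reached 1 TPM and 5 (29.4%) reached 10 TPM in every library, below the 59.5% and 40.4% of all protein-coding rows. The 10 wider hexose carriers, with 50% and 20%, were also below these shares. Of 22 genes of pyruvate and lactate handling, 20 reached 1 TPM and 14 reached 10 TPM. SLC16A3 (MCT4), a carrier that exports lactate, was at 317, 323 and 312 TPM, above SLC16A1 (MCT1) at 98.5, 86.5 and 85.5 TPM. BSG, the chaperone of both carriers, was at 646, 630 and 624 TPM. By coverage the order of the carriers was reversed, with 454 ± 61.5 for SLC16A1 and 399 ± 33.2 for SLC16A3. All 12 regulators reached 1 TPM and 11 reached 10 TPM, including HIF1A at 56.1 ± 3.09 TPM and EPAS1 at 57.6 ± 3.72 TPM, the oxygen-regulated factors that bind ACGTG with ARNT. PTBP1, HNRNPA1 and HNRNPA2B1, splicing factors known to act on PKM, were at 339 ± 3.78, 1534 ± 38.0 and 1094 ± 25.4 TPM.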

How the data were processed

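The 3 tables, 1 per library, were analysed. Per the labels and the submitters' processing notes, the authors filtered reads with FastQC 0.11.8 and Trim Galore 0.6.2, mapped them to GRCh38 with STAR 2.6.1a and used StringTie, whose version, annotation and strand setting are not given in the sources used here. The coverage values deposited by the authors are the mean read depth over a gene and are not scaled for library size. In the deposited FPKM values, gene length and library size are corrected for. In the deposited TPM values, every library has an equal total. No counts are given, so the depth is unknown, no counting error could be given, and precision is the SD over 3 libraries.

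Rows were matched between tables on symbol, strand, start and end, leaving 43389 rows and dropping 6. TPM was used as deposited, and a pseudocount of 1 was added on the log2 scale. Genes with at least 1 TPM in every library were counted as expressed. Pairs at the same step were compared by an exact permutation test over the signs of 3 libraries (two-sided), with Benjamini-Hochberg adjustment. Other results are descriptions. No comparison between conditions was possible. The members and the other gene lists were chosen with earlier results of these data known. The text names all members, genes of the wider lists that belong to a step or its regulation, and overlapping or pseudogene rows, with those below 1 TPM named where they share sequence or position with a member. Promoters and transcript numbers came from RefSeq (GRCh38.p14), and primer sites were searched in GENCODE transcripts.

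The alternatives were leaving out each replicate, coverage or FPKM in place of TPM, a pseudocount of 0.1, other limits on low TPM, median-of-ratios scaling, scaling without mitochondrially encoded genes, rows on all references and wider steps. The calculations used Python 3.11.15, numpy 2.4.6, pandas 2.3.3, scipy 1.17.1 and matplotlib 3.10.9.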

Additional observations from a re-analysis of the deposited data

How the results depend on the processing

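The count of expressed members was 28 to 30 and that of expressed wider genes 46 to 51 without each replicate, under both other scalings and with a minimum of 0.1 TPM. The number of members with a range above 1 was 0 and that of pairs with 1 direction 25 in the runs without a replicate or with other scaling, with FPKM and with a pseudocount of 0.1. The former was also 0 with a minimum mean of 1 TPM or none, and the latter also 25 by coverage. Leaving out a replicate moved no leading share by more than 0.979 percentage points. With coverage in place of TPM, the log2 ratio was −0.85 for HK1 over HK2, 1.34 for PFKL over PFKM, −1.66 for PFKM over PFKP and −2.64 for PFKFB3 over PFKFB4, all reversed. The share of the gene that led by TPM was then 35.5% for HK1, 14.9% for PFKM, 77.3% for PFKFB2, 96.0% for ALDOA, 99.8% for GAPDH, 99.1% for PGAM1, 95.8% for ENO1, 99.99% for PKM and 57.4% for LDHA, and the pseudogene share was 0.267% for TPI1 and 0.0929% for PGAM1. With pseudogene rows and the wider enzymes or carriers of the same step in the total, the share was 40.7% for HK1, 97.0% for PGAM1 and 59.7% for SLC2A1, because more genes were counted. With the overlapping row LOC112694756 in the total, which was chosen after seeing the data, the share of ALDOA was 77.6%. The cause of the changes with coverage was not tested. No paired analysis was possible because the series has 1 condition. Without counts, differences among members below 1 TPM cannot be set against a counting error.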
